A study of Mus musculus with 5 samples.

Results

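Gm10800 and Gm10801 are a pair of predicted mouse genes whose values were compared in germinal center B cells with and without the genes of the alternative NF-κB pathway. They are 2 of the 38924 genes in the deposited table, where they are spelled GM10800 and GM10801, and they were chosen because their values in the knockout libraries were very low. The contrast between the genotypes is therefore given for them as a description, with no test. RNA came from spleens of 12-week-old mice, taken on day 7 after the mice received sheep red blood cells, and the sorted cells are named eGFP+ in the series title. WT libraries (n = 3) came from Cg1-Cre mice, and DKO libraries (n = 2) from littermates that carried Cg1-Cre with floxed alleles of Relb and Nfkb2 (relbfl/flnfkb2fl/fl). Both groups thus carry the Cre, which is active in B cells once they transcribe the IgG1 constant region gene, and the deletion is limited to cells with Cre activity. Nothing in the labels ties each library to its own animal, so the spread between libraries may be partly technical.

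Major satellite DNA is the tandem repeat that fills the heterochromatin beside mouse centromeres. It is kept compact by histone H3K9 and H4K20 methylation, HP1 proteins and DNA methylation, and it is usually transcribed at a low level. Annotated genes such as Gm10800 and Gm10801 contain sequence of this kind outside the large centromeric arrays, so a read placed on them can also come from other copies of the repeat. No function of a Gm10800 or Gm10801 product is given here.

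In GENCODE M21, which uses the build GRCm38 and not the mm9 of the submitters' processing notes, both genes lie on chromosome 2, on opposite strands, with 0 annotated genes between them. No coordinates are given because the builds differ. Gm10800 (ENSMUSG00000075014.1) has 5 exons and Gm10801 (ENSMUSG00000075015.3) has 4, both are annotated as protein coding, and all 660 and 504 bases of their transcripts are annotated as coding. The stretch of 300 bases with the most shared sequence is shown for each: bases 70 to 369 of Gm10800 and bases 1 to 300 of Gm10801. Capitals mark the bases that lie in a stretch of 50 bases, the length of 1 sequenced read, with an exact copy in the transcript of another gene on either strand. In Gm10800 such bases make up 252 of the 300 shown and 426 of all 660. In Gm10801 they make up 215 of the 300 shown and 215 of all 504, so the part not shown has none. The lines run 5′ to 3′ and come from the GENCODE M21 transcripts.
Gm10800: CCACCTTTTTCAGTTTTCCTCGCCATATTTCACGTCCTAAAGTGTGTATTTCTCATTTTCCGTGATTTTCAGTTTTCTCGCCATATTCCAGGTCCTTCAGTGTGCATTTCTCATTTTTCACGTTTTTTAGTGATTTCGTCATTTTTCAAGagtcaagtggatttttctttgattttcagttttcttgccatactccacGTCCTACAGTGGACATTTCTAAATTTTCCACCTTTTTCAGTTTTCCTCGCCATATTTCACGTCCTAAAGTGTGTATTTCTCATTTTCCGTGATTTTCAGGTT
Gm10801: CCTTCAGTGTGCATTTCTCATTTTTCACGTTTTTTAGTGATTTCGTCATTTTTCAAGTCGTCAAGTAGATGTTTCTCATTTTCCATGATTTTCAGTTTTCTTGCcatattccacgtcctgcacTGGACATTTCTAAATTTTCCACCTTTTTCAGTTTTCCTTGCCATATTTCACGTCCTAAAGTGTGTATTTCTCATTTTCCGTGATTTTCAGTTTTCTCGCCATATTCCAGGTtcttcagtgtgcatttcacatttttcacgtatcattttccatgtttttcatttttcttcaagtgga

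Both transcripts were rich in T (45.8% in Gm10800 and 47.4% in Gm10801) and poor in G and C (35.9% and 34.3%). Stretches of 12 bases recurred within a transcript most often at a distance of 225 bases in Gm10800 (115 pairs) and of 231 bases in Gm10801 (31 pairs). The transcripts of the 2 genes aligned to each other with 89.8% identity over 509 positions. Of 611 windows of 50 bases in Gm10800, 184 (30.1%) had an exact copy in another gene's transcript, and of 455 windows in Gm10801, 78 (17.1%) did. Every such copy lay in the other of the pair or in 11 related genes, and 0 windows matched any other GENCODE transcript. Between Gm10800 and Gm10801 themselves, 70 windows of Gm10800 and 68 of Gm10801 were shared. Unannotated copies of the repeat in the genome were not searched, so these shares are the sharing among annotated transcripts only. How the authors' counting treated reads with several placements was not given in the sources used here, so the split of reads among these genes is uncertain.

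Gm10800 had 1234, 8999 and 738 normalized counts in WT replicates 1 to 3 and 15.8 and 17.3 in DKO replicates 1 and 2. A normalized count here is a read count divided by the authors' scaling factor for the library. WT replicate 2 stood far above the other WT libraries, 7.29 times replicate 1 and 12.2 times replicate 3. The DKO libraries were close to each other and did not overlap with WT: the lowest WT value was 42.5 times the highest DKO value. In reads these values are 1153, 8722 and 768 in WT and 18 and 21 in DKO, with 95% Poisson intervals of 10.7 to 28.5 and 13.0 to 32.1 reads for the DKO libraries. The intervals here and below cover counting error only. In RNA from a bulk of cells, a lower level per cell and fewer cells with the transcript cannot be told apart. Among the genes outside the mitochondrial genome Gm10800 held place 194 from the top in WT replicate 2, places 2644 and 3837 in WT replicates 1 and 3, and places 12479 and 11826 in DKO replicates 1 and 2.

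Gm10801 had 164, 1281 and 130 normalized counts in WT replicates 1 to 3 and 1.75 and 10.7 in DKO replicates 1 and 2. It followed the order of Gm10800 in WT, with replicate 2 at 7.82 times replicate 1 and 9.88 times replicate 3. The groups did not overlap here either, and the lowest WT value was 12.1 times the highest DKO value. The DKO values rest on 2 reads in replicate 1 (95% interval 0.24 to 7.22) and 13 in replicate 2 (6.92 to 22.2). In WT the reads were 153, 1242 and 135.

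**Figure D1:**
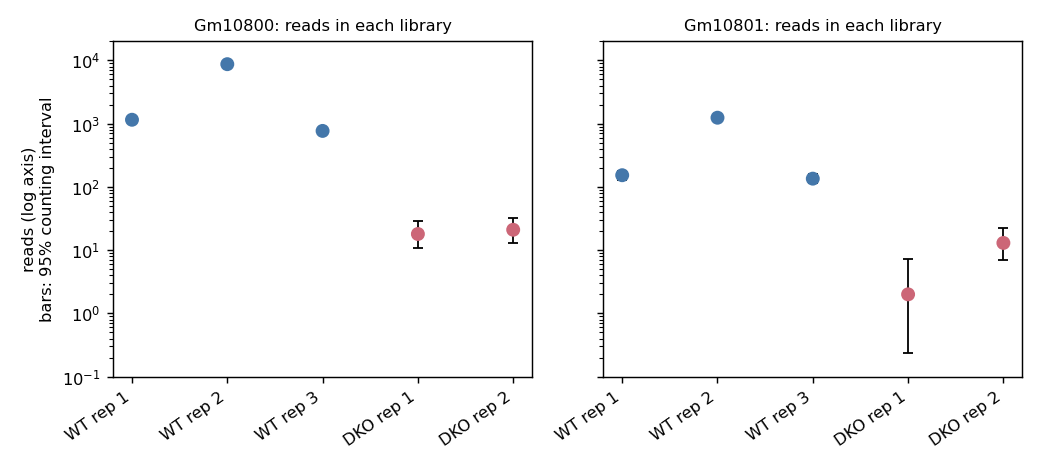
Reads of Gm10800 (left) and Gm10801 (right) in each of the 5 libraries, on a log axis, with 95% Poisson counting intervals as bars (smaller than the points in most WT libraries). All WT libraries lie above both DKO libraries in each gene, and WT replicate 2 is the highest, at 8722 and 1242 reads.

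The size of the genotype gap depended on WT replicate 2, while its direction did not. Gm10800 averaged 3657 ± 4633 (SD, n = 3) normalized counts in WT and 16.6 ± 1.12 (SD, n = 2) in DKO, a ratio of means of 221. WT replicate 2 gave 82.0% of the WT sum. With WT replicates 1 and 3 alone the WT mean of Gm10800 was 986 and the ratio 59.6. For Gm10801 the means were 525 ± 655 and 6.24 ± 6.35, a ratio of 84.1 with all WT libraries and 23.5 with WT replicates 1 and 3. On the log2(value + 1) scale, where changes of low genes come out too small, the fitted difference of DKO from WT was −6.85 ± 0.86 (SE) for Gm10800 and −5.73 ± 0.99 for Gm10801. Without WT replicate 2 these log2 differences were −5.77 and −4.69. Without DKO replicate 1, the library with 2 Gm10801 reads, that of Gm10801 was −4.69, and without DKO replicate 2 it was −6.78.

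Among the 13242 genes with a mean value of at least 10, which were fitted together with limma, 0 genes had a fitted log2 difference below that of Gm10800, and Gm10800 alone was below Gm10801. Groups that did not overlap, with DKO lower, were found in 11.0% of the genes tested, and with DKO higher in 12.5%. Since the pair was chosen on this contrast, its place in that distribution is a description. In limma's test 0 of the 13242 genes (0% in either direction) passed an adjusted p of 0.05, with a smallest adjusted p of 0.148. At an unadjusted p under 0.05 there were 314 lower (2.37%) and 489 higher genes (3.69%). EdgeR on the recovered reads called 0 genes and DESeq2 29.

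**Figure D2:**
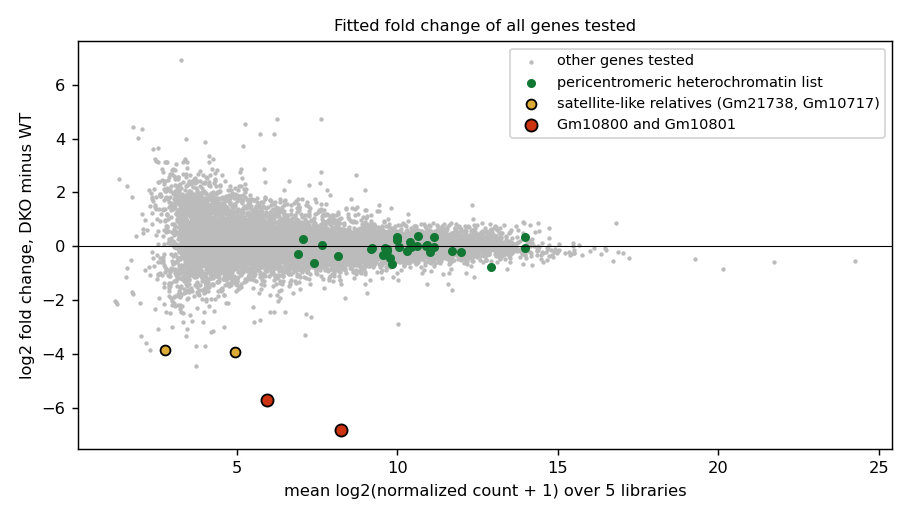
Fitted log2 fold change (DKO minus WT) against the mean log2(normalized count + 1) over 5 libraries for the 13242 genes tested. Gm10800 and Gm10801 (red) have the lowest fold changes, −6.85 and −5.73, the related genes Gm21738 and Gm10717 (yellow) lie at −3.94 and −3.84, and the heterochromatin genes (green) lie between −0.78 and 0.36.

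Per kilobase of transcript Gm10800 was above Gm10801 in all 5 libraries, though by less than the counting error in DKO replicate 2, and not in a fixed proportion. The ratio of Gm10800 to Gm10801 in normalized counts was 7.54, 7.02 and 5.69 in WT replicates 1 to 3, 9.0 in DKO replicate 1 and 1.62 in DKO replicate 2. The corresponding ratios per kilobase were 5.76, 5.36, 4.34, 6.87 and 1.23. In WT the exact (Clopper-Pearson) 95% intervals of the ratio of reads overlapped, at 6.36 to 8.98, 6.62 to 7.46 and 4.73 to 6.88. DKO replicate 1 had too few reads to place its ratio (2.16 to 80.0). In DKO replicate 2 the interval, 0.772 to 3.51, lay below those of all WT libraries, so Gm10801 kept a larger part of the pair's reads there.

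The 11 related genes were listed for lying in satellite-like sequence, and alignment of the pair to all GENCODE M21 transcripts found these genes and no others. Of the 11, 10 lie on chromosome 9 and Gm21738 on chromosome 14. Their best alignments to Gm10800 or Gm10801 had between 86.9% and 93.4% identity, and Gm26870 aligned in the opposite orientation. They can share reads with the pair and are not independent of it. Gm10721 was at 0 in every library. The other 10 had a lower mean in DKO, and in 5 of them the DKO values lay below every WT value. For Gm10715, Gm10722 and Gm26870, which are among these, the lowest WT library had 1 read against 0 in DKO. Over all 13242 genes tested, 6615 had a fold change below 0 and 11.0% had DKO values below every WT value. Most of the relatives fell under the minimum value of that test, so the counts are a description.

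Gm21738, the most abundant relative, had 42.8, 348 and 50.9 normalized counts in WT replicates 1 to 3 and 2.63 and 9.09 in DKO replicates 1 and 2. Its WT replicate 2 was 8.12 times WT replicate 1, close to the factors of 7.29 in Gm10800 and 7.82 in Gm10801. Its groups did not overlap. The log2 fold change was −3.94 ± 0.95 (SE), which did not pass (adjusted p = 0.823, limma). Gm10717 had 13.9, 65.0 and 6.73 in the WT libraries and 0.88 and 0 in DKO. Its log2 fold change of −3.84 ± 1.31 did not pass either (adjusted p = 0.823, limma). These were the 2 relatives that reached the minimum mean value of 10, and they reached it through their WT values.

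The remaining relatives were counted in single reads. Gm10722 had 1, 21 and 2 reads in WT replicates 1 to 3, Gm26870 had 1, 18 and 4, and Gm10715 had 1, 10 and 1. Gm10720 and Gm10718 had 6 reads each over the 3 WT libraries, Gm10719 and Gm11168 had 4 each, and Gm17535 had 2. None of these 8 genes had a read in either DKO library. A count of 0 has a 1-sided 95% upper limit of about 3 reads, unlike the intervals above, which have 2 sides. Of the 10 relatives with reads, 9 were highest in WT replicate 2, the exception being Gm17535 with 1 read in each of WT replicates 1 and 2. Summed over all 11, there were 59, 465 and 70 reads in the WT libraries and 4 and 11 in DKO, and Gm21738 gave 14 of the 15 DKO reads. The pair had 22.1, 21.4 and 12.9 reads for each read of the relatives in WT and 5.0 and 3.09 in DKO, where the ratios rest on the 4 and 11 reads of the relatives. Without Gm21738 the relatives had 164 reads in WT and 1 in DKO.

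**Figure D3:**
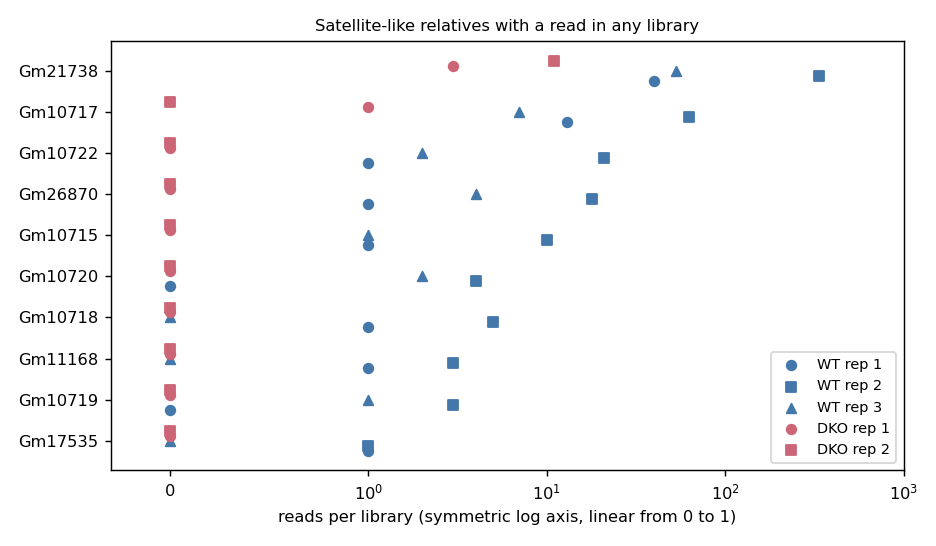
Reads of the 10 satellite-like relatives with a read in any library, on a symmetric log axis that is linear from 0 to 1, with WT libraries in blue and DKO libraries in red. WT replicate 2 (blue squares) is the highest for 9 of the genes, and 8 of them have 0 reads in both DKO libraries.

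Genes with the most similar pattern were sought among 13240 genes with a mean value of at least 10. The measure was the root mean square difference between the centred log2(value + 1) profile of a gene over the 5 libraries and the mean profile of Gm10800 and Gm10801, where 0 is identity. Gm10800 and Gm10801 differed from each other by 0.84, and the median gene differed from their mean profile by 3.33. The closest gene was Gm21738 (1.19) and the next Gm10717 (1.38), both satellite-like relatives. Then came A930033H14Rik (1.5), Spry1 (1.63), Enpp4 (1.79), Neurl1a (1.8), Gm12063 (1.90) and Cdc42ep4 (1.93). Spry1, an inhibitor of receptor tyrosine kinase signaling, had 6, 38 and 8 reads in the WT libraries and 0 and 2 in DKO. Enpp4, an ectonucleotide phosphodiesterase, had 34, 110 and 42 reads in the WT libraries and 8 and 6 in DKO. Neurl1a, an E3 ubiquitin ligase gene, had 57, 27 and 55 reads in the WT libraries and 0 and 4 in DKO, and so lacked the peak in WT replicate 2. Cdc42ep4, an effector of the GTPase CDC42, had 10, 38 and 38 in the WT libraries and 2 and 3 in DKO. These genes were selected on the same libraries, and no test was made of them.

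**Figure D4:**
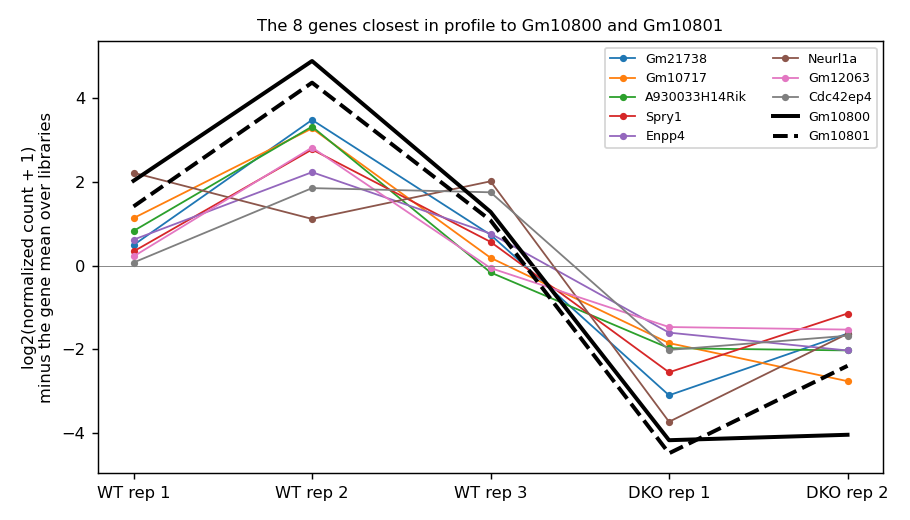
Centred log2(normalized count + 1) in the 5 libraries for Gm10800 (black, solid), Gm10801 (black, dashed) and the 8 genes with the closest profile. Lines join the values of 1 gene and imply no order of the libraries. Gm10800 and Gm10801 have the widest range, from −4.17 to 4.90 and from −4.49 to 4.38, and 6 of the 8 genes peak clearly in WT replicate 2.

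The genes beside the pair on chromosome 2 had almost no reads. Of the 5 measured genes on each side of the pair, all pseudogenes or small nucleolar RNA genes, 9 had 0 reads in every library. The pseudogene Gm13803 had 18, 21 and 20 reads in the WT libraries and 25 and 24 in DKO.

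Genes listed for roles in heterochromatin, histone methylation, DNA methylation or centromeres had fitted log2 fold changes between −0.78 and 0.36, and none passed the test. Not all of them act mainly at pericentromeric repeats. Of 32 listed, 31 reached the minimum value (Zfp57, a zinc finger protein of imprinting control regions, was at 0). The fitted log2 fold change was above 0 in 11 and below 0 in 20 (6627 and 6615 of all 13242 genes), with a median of −0.06 against 0.00 over all genes tested. The balance of directions moved with the scaling, and so did the median over all genes tested. With libraries scaled to genes outside the mitochondrial genome, 16 were above 0 and 15 below. The list median was then 0.01 against 0.07 over all genes. With TMM scaling 9 were above 0 and 22 below (median −0.08 against −0.02). With quantile scaling these were 12 and 19 (−0.03 against −0.01). None of the 31 passed in limma (smallest adjusted p = 0.851), and 0 had an unadjusted p under 0.05. EdgeR and DESeq2 also called 0. The DKO values lay below all WT values in 4 of the 31 (12.9%, where 11.0% of all genes tested did) and above them in 2 (6.45%, against 12.5%).

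Among the H3K9 methyltransferases, Suv39h1, the enzyme that marks pericentromeric heterochromatin, averaged 1099 ± 273 (SD, n = 3) in WT and 1072 ± 334 (SD, n = 2) in DKO. Ehmt1, a methyltransferase of euchromatic H3K9, averaged 965 ± 47.3 and 1135 ± 47.5. Suv420h1, an H4K20 methyltransferase, was at 1545, 1668 and 1197 in the WT libraries and 2001 and 1754 in DKO, with a log2 fold change of 0.36 ± 0.22 (SE). Both were above the WT range in DKO without passing the test, while Cbx1, Cbx3, Dnmt3b and Daxx were below it, also without passing. The HP1 genes Cbx1, Cbx3 and Cbx5, whose products bind methylated H3K9, had log2 fold changes of −0.23 ± 0.18, −0.17 ± 0.20 and 0.35 ± 0.27. The centromeric histone gene Cenpa had 0.33 ± 0.24.

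DNA methylation genes included the maintenance enzyme gene Dnmt1, at 16809 ± 3550 (SD, n = 3) in WT and 15959 ± 3873 (SD, n = 2) in DKO. Dnmt3b, a de novo methyltransferase, was at 191, 171 and 247 in the WT libraries and 109 and 154 in DKO; its fitted log2 difference was −0.63 ± 0.32 (adjusted p = 0.857, limma). The H3.3 chaperone genes Atrx and Daxx had −0.78 ± 0.46 and −0.42 ± 0.22. Chaf1a, a subunit of the replication-coupled histone chaperone CAF-1, was at 1119, 929 and 1300 in the WT libraries and 469 and 1037 in DKO (−0.66 ± 0.33). None of these differences passed the test, and for Atrx and Chaf1a the fold change rested on libraries that differed within a genotype by more than 2 times.

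**Figure D5:**
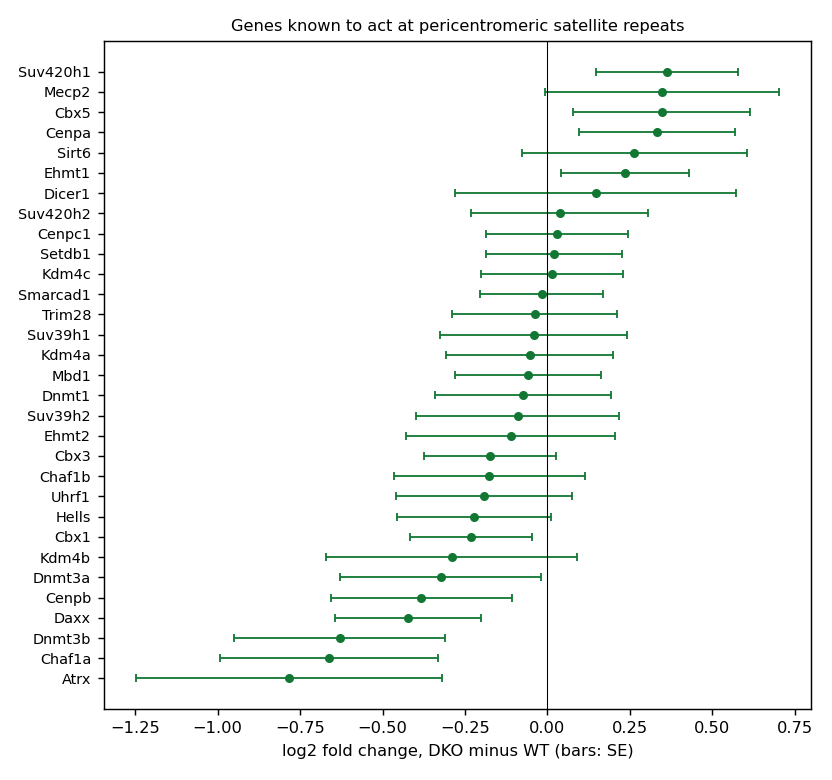
Fitted log2 fold change (DKO minus WT, with SE as bars) of the 31 tested genes of the heterochromatin list. The list also holds genes that act mainly elsewhere, such as Ehmt1 and Cenpa. The values run from −0.78 (Atrx) to 0.36 (Suv420h1), and none passed the test.

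Several properties of the libraries were set beside the values of Gm10800 and Gm10801. Reads outside the mitochondrial genome numbered 15.4 to 15.5 M in WT and 17.6 to 17.7 M in DKO, so the DKO libraries were not shallower in these genes, and Gm10800 differed between genotypes per read of this total as it did in normalized counts, at 74.9, 564 and 49.6 reads per M in WT and 1.02 and 1.19 in DKO. Relb ran from 117 to 171 normalized counts in WT and from 10.7 to 56.9 in DKO, with DKO replicate 2 the lower. Nfkb2 had 657, 601 and 445 in the WT libraries against 298 in DKO replicate 1 and 73.5 in DKO replicate 2. The 18 and 21 reads of Gm10800 in DKO replicates 1 and 2 have counting intervals that overlap widely, so their order is uncertain. Gm10801 had 2 and 13 reads there, with intervals of 0.24 to 7.22 and 6.92 to 22.2, and Gm21738 had 3 and 11. Whether these reads follow the level of Relb or Nfkb2 was not tested. All 12 germinal center B cell markers had reads, with summed levels of 170199 to 239330 in WT and 165103 to 183405 in DKO.

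Transcripts of other lymphocytes were high in WT replicate 2, where Gm10800 peaked, and also in DKO replicate 1, where it was low. The 10 T cell markers summed to 96.4, 974 and 46.1 in WT replicates 1 to 3 and to 597 and 121 in DKO replicates 1 and 2, and all 10 were higher in WT replicate 2 than in the other WT libraries. The 6 NK cell markers summed to 26.8, 330 and 3.84 in WT and to 105 and 23.1 in DKO, and the 5 naive B cell markers in the table to 3814, 15107 and 7301 and to 13137 and 6035. No defining marker of these lists was at 0 in all libraries. Myeloid markers summed to 154 to 1149 in WT and 486 to 1173 in DKO, plasma cell markers to 8453 to 11327 and 6837 to 7915, and erythroid markers to 18.3 to 38.2 and 33.9 to 194. The part of these transcripts in the values of Gm10800 and Gm10801 within WT was not tested. Xist, the RNA of the inactive X chromosome, had 26, 52136 and 18888 reads in the WT libraries and 66 and 80898 in DKO, so libraries with high and with low Xist occurred in both genotypes. Ddx3y, a gene of the Y chromosome, had 1646, 0 and 0 reads in the WT libraries and 2030 and 0 in DKO. Replicate 1 of each genotype thus had the pattern of males, and the other libraries that of females.

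B cells do not normally transcribe olfactory, vomeronasal and trace amine receptor genes. The number of these genes with a read ran in the same order as Gm10800 within WT. The T cell and NK cell marker sums had this order too, and unrelated measures can easily share an order of 3 libraries. The share of mitochondrial rRNA had the reverse order, at 62.4%, 51.6% and 70.9% in WT replicates 1 to 3, and was 47.0% and 60.6% in DKO replicates 1 and 2. Of 1797 such genes in the table, 61, 123 and 43 had a read in WT replicates 1 to 3 and 26 and 36 in DKO replicates 1 and 2. The groups did not overlap. Over all genes of the table the groups did not overlap either, but with DKO higher. There 17900, 18559 and 17843 genes had a read in WT replicates 1 to 3 and 18744 and 18715 in DKO replicates 1 and 2. Restricted to genes with at most 10 reads in every library, a limit chosen after the values were seen, 46, 103 and 29 had a read in WT and 11 and 22 in DKO, with 115, 276 and 54 reads in WT and 45 and 48 in DKO. Summed reads over all these receptor genes did not separate the genotypes, at 524, 837 and 250 in the WT libraries and 824 and 394 in DKO. The part of such reads in the values of Gm10800 and Gm10801 was not tested.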

How the data were processed

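Total RNA from sorted cells was amplified, per the labels' protocols, with the NuGEN Ovation system, and libraries were sequenced as paired reads of 50 bases. Tools named in the submitters' processing notes are TopHat2 2.0.4, CASAVA 1.8.2 and Cufflinks 2.0.2, with the build mm9. The counter, the annotation, the use of strand and the treatment of reads with several placements were not given in the sources used here. For each gene and library the authors deposited a normalized signal, and every value above 0 was a whole multiple of the smallest value of its library (100% of values, within 0.02 of a whole number), so whole reads were recovered by division. Totals were 34.0 to 57.6 M reads per library.

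Groups followed the sample titles. Genes with a mean of at least 10 (13242 of 38924) entered 1 fit with limma 3.58.1 (R 4.3.3) on log2(value + 1), with a mean-variance trend, Benjamini-Hochberg adjustment and a threshold of 0.05, and the script was tested on simulated data. Residual degrees of freedom were 3. Alternatives were DESeq2 1.42.0 and edgeR 4.0.16 run on whole reads, and other pseudocounts, minimum values, scalings, a replicate block and leaving out each library. Sequences were compared with blastn at an E value limit of 1e-05, and exact windows of 50 bases were searched on both strands. The genes and lists were chosen with earlier results of these data known. Named were the pair, Relb and Nfkb2, all measured relatives and neighbours, the 4 heterochromatin genes per direction with the smallest p, and the 8 genes with the closest profile. Suv39h1, Cbx1, Cbx3, Dnmt1 and Zfp57, as well as Xist and Ddx3y, were added for their roles, after their values were seen.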

Additional observations from a re-analysis of the deposited data

How the results depend on the processing

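The 2 log2 fold changes stayed negative under every alternative run. That of Gm10800 ran from −5.77 to −7.57 when 1 library was left out and that of Gm10801 from −4.69 to −6.78. With a pseudocount of 10 they were −6.26 and −4.34, and with edgeR −7.79 and −6.36. The mean log2 ratio of Gm10800 to Gm10801 over the libraries was 2.29 and ran from 2.14 to 2.71 with 1 library left out. All 10 relatives with reads had a lower mean in DKO under each scaling and with each library left out. For the 8 with 0 reads in DKO this could hardly come out otherwise. The pseudocount, the minimum value and the block do not enter these means. Of the heterochromatin genes, 0 were called under any alternative that kept both DKO libraries. The number of genes past the adjusted threshold, 0 in limma, was 29 with DESeq2 and 0 to 1 when 1 library was left out (1 without WT replicate 2 and 1 without DKO replicate 1). With the replicate number as a block it was 36, and the log2 fold changes of the pair were −7.57 and −6.34. WT replicate 3 is the only library with its number, so these fold changes equal those without WT replicate 3. The block fit thus rests on 2 pairs of libraries, with fewer residual degrees of freedom than the main fit. Nothing in the labels says that a shared number marks a shared batch, and the deviations of same-numbered libraries correlated at 0.005 and −0.28. By Xist and Ddx3y, both libraries with number 1 had the pattern of males and both with number 2 that of females, so the block also groups libraries by this pattern. The cause of these differences in calls was not tested. Fits without a DKO library rest on 1 DKO library, which is assumed to vary like WT. Depth limits the DKO values, which rest on 2 to 21 reads per gene and library.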
